A study of Mus musculus with 12 samples.

Results

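The regulators of G protein signalling (RGS) are a gene family, and 9 of its members, Rgs1, Rgs2, Rgs3, Rgs10, Rgs12, Rgs14, Rgs16, Rgs18 and Rgs19, are described here in mouse osteoclast precursor cells. They were found by symbol in a table of 28293 genes, and all 9 passed the filter on low counts that left 13775 genes for testing. The cells were primary, wild-type cells grown from femur and tibia marrow of male C57BL/6J mice aged 6 months. After 3 days in M-CSF (10 ng/ml), cells that had not adhered earlier were induced with RANKL (25 ng/ml) on top of M-CSF, which both groups share. The 6 control libraries (RANKL) came from cells given RANKL at 25 ng/ml for 24 h. The 6 treated libraries (RANKL+Dex) came from cells that also received dexamethasone, a synthetic glucocorticoid, at 10 nM, to mimic what the protocols call GIONFH. The protocols do not settle whether these 24 h followed a first 24 h of RANKL. In such a mixed marrow culture a bulk RNA library averages over all cells present, so fewer cells of a type and less RNA per cell cannot be told apart.

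Hormones, chemokines and nucleotides act on cells through receptors that load GTP onto G protein alpha subunits, and RGS proteins end the signal by speeding up the hydrolysis of that GTP. The small proteins of the R4 group (RGS1, RGS2, RGS3, RGS16 and RGS18 here) act on the Gi and Gq classes, RGS2 with a preference for Gq. The R12 group holds RGS10, a small protein that acts on Gi, and RGS12 and RGS14, large scaffolds that also bind Ras-family proteins and carry a second, GoLoco motif that holds Gi subunits in their GDP form. RGS19 belongs to the RZ group, whose members carry a string of cysteines near the N terminus. In mouse osteoclast precursors, RGS10 and RGS12 are known for their part in the calcium oscillations that RANKL evokes upstream of NFATc1, and RGS18 is known as a brake on acid-sensing receptor signals.

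Promoter windows are shown for the changed RGS genes that have an entry in the RefSeq table used (GRCm38.p6), from 250 bases before the start site to 50 bases after its first base, read along the gene. Capitals mark any match, on either strand, to ACANNNTGT (core of the palindromic glucocorticoid response element), AGAACA (a single arm of it), TGACGTCA (cyclic AMP response element), TGACGT (contained in it) or TGANTCA (AP-1). Rgs2 lies on the minus strand at chr1:144004100-144004399, Rgs16 on the plus strand at chr1:153740103-153740402, and Rgs10 on the minus strand at chr7:128418123-128418422.
Rgs2: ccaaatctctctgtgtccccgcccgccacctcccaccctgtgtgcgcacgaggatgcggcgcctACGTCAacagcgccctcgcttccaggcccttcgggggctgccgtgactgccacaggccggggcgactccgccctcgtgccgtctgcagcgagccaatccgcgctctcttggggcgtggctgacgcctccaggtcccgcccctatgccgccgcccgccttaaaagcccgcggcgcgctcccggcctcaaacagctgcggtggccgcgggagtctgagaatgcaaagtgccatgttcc
Rgs16: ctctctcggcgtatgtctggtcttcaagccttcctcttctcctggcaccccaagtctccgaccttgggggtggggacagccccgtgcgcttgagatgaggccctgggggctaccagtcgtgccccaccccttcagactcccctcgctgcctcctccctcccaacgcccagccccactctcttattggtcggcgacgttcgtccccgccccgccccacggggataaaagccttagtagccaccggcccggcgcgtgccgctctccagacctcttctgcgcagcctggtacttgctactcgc
Rgs10: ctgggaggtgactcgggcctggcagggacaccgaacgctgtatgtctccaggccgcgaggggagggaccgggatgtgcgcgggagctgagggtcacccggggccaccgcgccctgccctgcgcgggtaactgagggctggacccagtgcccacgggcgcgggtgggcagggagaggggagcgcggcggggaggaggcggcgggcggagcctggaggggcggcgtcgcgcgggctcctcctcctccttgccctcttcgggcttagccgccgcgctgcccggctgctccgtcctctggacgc
The Rgs2 window holds 1 marked run, a match to TGACGT on the opposite strand that begins at position −186 relative to the start site. TGACGT occurs in 7.51% of the 32851 windows of this length in the table. No marked motif occurs in the Rgs16 and Rgs10 windows. The windows are rich in G and C, at 70.0% (Rgs2), 66.0% (Rgs16) and 76.0% (Rgs10) against a median of 52.7% over all windows. In all, 6 of the 9 genes matched the table, with 10 windows between them. ACANNNTGT was in 0 of these 10 windows (6.85% of all windows) and TGACGTCA in 0 (1.79%). AGAACA was in 4, from Rgs3, Rgs12 and Rgs19 (19.0%), TGANTCA in 1, from Rgs12 (7.81%), and the unmarked GGAAA, the NFAT core, in 3, from Rgs3 and Rgs19 (61.3%). A match or its absence describes the letters of the window only.

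With dexamethasone, Rgs1, Rgs2, Rgs14 and Rgs16 fell and Rgs10 rose, while Rgs3, Rgs12, Rgs18 and Rgs19 did not pass the test (edgeR quasi-likelihood test, adjusted p under 0.05 over all tested genes). Thus 5 of 9 RGS genes were called, against 15.5% of all tested genes, with 4 of 9 lower against 7.55% and 1 of 9 higher against 7.98%. The median log2 fold change of the 9 was −0.19, beside 0.00 over all tested genes, and the median absolute value was 0.21 beside 0.11. Of the 9 genes, 5 moved one way in all 6 batches (21.8% of tested genes did so in either direction), and these were the 5 called genes. In 4 of them the 6 treated and 6 control libraries did not overlap (7.01% of tested genes): 3 lower (3.17% of tested genes) and 1 higher (3.84%).

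**Figure D1:**
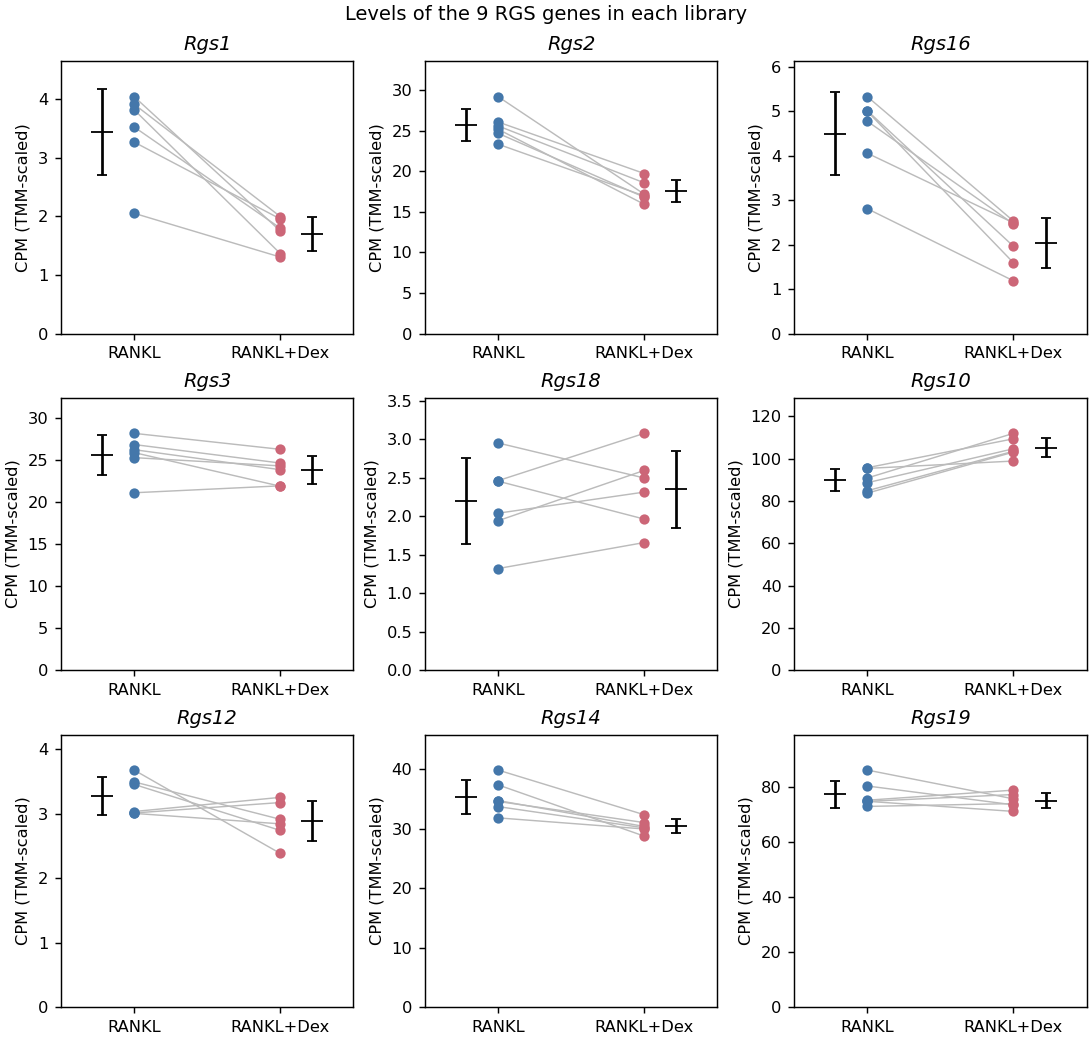
TMM-scaled CPM (y axis, from 0) of each RGS gene in the 6 RANKL and 6 RANKL+Dex libraries (x axis), with grey lines joining libraries of one batch number and black bars for mean ± SD (n = 6). Rgs1, Rgs2 and Rgs16 lie lower in every RANKL+Dex library than in any RANKL library, and Rgs10 lies higher.

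Total counts ran from 16820193 to 28523595 per library, with 20252 to 21776 genes detected. The label osteoclast precursor was checked on 10 marker genes, all of them tested, whose summed level lay between 48312 and 52624 CPM in RANKL and between 49796 and 54058 CPM in RANKL+Dex (CPM, counts relative to the TMM-scaled library size). Macrophage markers (8 of 8 in the table, led by Lyz2) summed to 3862 to 6441 CPM in RANKL and 3756 to 6471 CPM in RANKL+Dex. Dendritic cell markers (8 of 8) summed to 21.0 to 25.9 CPM in RANKL and 20.5 to 28.6 CPM in RANKL+Dex. Among other cell types, neutrophil markers (8 of 9 in the table, none of these 8 at 0 counts) summed to 23.7 to 37.5 CPM in RANKL and 6.30 to 10.1 CPM in RANKL+Dex. T and NK cell markers (5 of 9 in the table) summed to 0.592 to 2.59 and 0.418 to 1.32 CPM, and B cell markers (5 of 8) to 0.227 to 0.777 and 0.292 to 0.568 CPM, in that order. Stromal and endothelial markers (10 of 10, led by Col1a1) summed to 7.65 to 22.6 CPM (median 17.4) in RANKL and 3.67 to 21.4 CPM (median 9.63) in RANKL+Dex, with overlapping ranges, and their part in the results was not tested. Megakaryocyte and platelet markers (7 of 8, led by Pf4) ranged from 30.2 to 56.8 CPM in RANKL and from 33.5 to 60.2 CPM in RANKL+Dex.

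Among the R4 genes, 3 of 5 fell and 0 rose, where 7.55% of all tested genes were called lower and 7.98% higher. Rgs16, whose protein limits Gi and Gq signals in lymphocytes and other immune cells, lay at 2.81, 4.88 and 5.33 CPM (lowest, median and highest of the 6 RANKL libraries), from 49 to 129 reads. In RANKL+Dex it lay at 1.18, 2.21 and 2.53 CPM, from 20 to 71 reads. Every treated library was below every control library, with replicate 6 the lowest in each group. The fall was 2.18-fold (log2 fold change −1.12 ± 0.19 SE, edgeR adjusted p = 5.9e-04, n = 6 per group), from a mean of 4.49 ± 0.931 to 2.04 ± 0.559 CPM (SD).

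Rgs1, which in B cells dampens the response to chemokines, lay at 2.05, 3.67 and 4.04 CPM (lowest, median, highest) in RANKL. Its levels in RANKL+Dex were 1.303, 1.77 and 1.99 CPM, from 22 to 56 reads per library. The groups did not overlap, although RANKL replicate 5 stood close to the treated range. The log2 fold change was −1.01 ± 0.17 (2.01-fold lower, edgeR adjusted p = 8.4e-04, n = 6 per group). The neutrophil marker sum given above was also lower in every treated library than in any control library, as were Rgs1, Rgs2 and Rgs16, and its part in these results was not tested.

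Rgs2, the Gq-selective member and a known immediate-early gene, had more reads behind it, 286 to 635 per library. The lowest, median and highest RANKL libraries were at 23.3, 25.4 and 29.2 CPM. With dexamethasone these levels were 15.9, 17.1 and 19.7 CPM, all below the lowest control. This gene had the smallest p of the 9 and ranked 121 among all 13775 tested genes (log2 fold change −0.55 ± 0.07, 1.47-fold lower, edgeR adjusted p = 2.0e-05, n = 6 per group).

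Rgs3 and Rgs18, the other R4 genes, did not pass. Rgs3, which encodes several isoforms that differ ahead of the RGS domain, lay between 21.1 and 28.1 CPM (median 26.0) in RANKL and between 21.8 and 26.2 CPM (median 24.0) in RANKL+Dex. The ranges overlapped, and the treated library was lower in 5 of 6 batches (log2 fold change −0.10 ± 0.07, edgeR adjusted p = 0.343, n = 6 per group). Rgs18, known for its abundance in platelets and megakaryocytes, was at 1.32, 2.25 and 2.95 CPM in RANKL and at 1.66, 2.41 and 3.08 CPM in RANKL+Dex (lowest, median, highest). Its groups overlapped almost entirely, and 4 of 6 batches were higher (log2 fold change 0.10 ± 0.19, edgeR adjusted p = 0.794). It had 28 to 65 reads per library.

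In the R12 group Rgs10 rose, Rgs14 fell and Rgs12 did not pass. Rgs10 was at 83.7, 89.8 and 95.7 CPM (lowest, median, highest) in RANKL and at 98.9, 104 and 112 CPM in RANKL+Dex. Each treated library exceeded each control library, by a small margin between replicate 1 of RANKL+Dex and replicate 4 of RANKL. The rise was 1.17-fold (log2 fold change 0.23 ± 0.04, edgeR adjusted p = 0.00186, n = 6 per group). The gene overlaps the predicted gene Gm15503 on the same strand, which had a mean of 1.02 CPM among controls and 1.04 CPM with dexamethasone. No source used here says how reads in the overlap were counted.

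Rgs14 lay between 31.8 and 39.9 CPM (median 34.7) in RANKL and between 28.8 and 32.4 CPM (median 30.3) in RANKL+Dex. The groups met only at their edges, where 5 of 6 treated libraries were below every control. It fell 1.16-fold (log2 fold change −0.21 ± 0.05, edgeR adjusted p = 0.0132, n = 6 per group), and the call ended without batch 6 (adjusted p = 0.0665). Rgs12, the largest scaffold of the group, was at 3.01, 3.25 and 3.68 CPM in RANKL and at 2.38, 2.88 and 3.25 CPM in RANKL+Dex (lowest, median, highest). Those ranges overlapped, with 4 of 6 batches lower (log2 fold change −0.19 ± 0.12, edgeR adjusted p = 0.323). Its point estimate was close to that of Rgs14, but from 42 to 90 reads per library against 486 to 909, and with an SE more than double in size.

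Rgs19, first described as GAIP for its binding of Gi subunits, lay between 72.8 and 86.0 CPM (median 74.9) in RANKL and between 71.0 and 78.7 CPM (median 74.7) in RANKL+Dex. Treated libraries were higher in 3 batches and lower in 3 (log2 fold change −0.04 ± 0.04, edgeR adjusted p = 0.570, n = 6 per group).

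**Figure D2:**
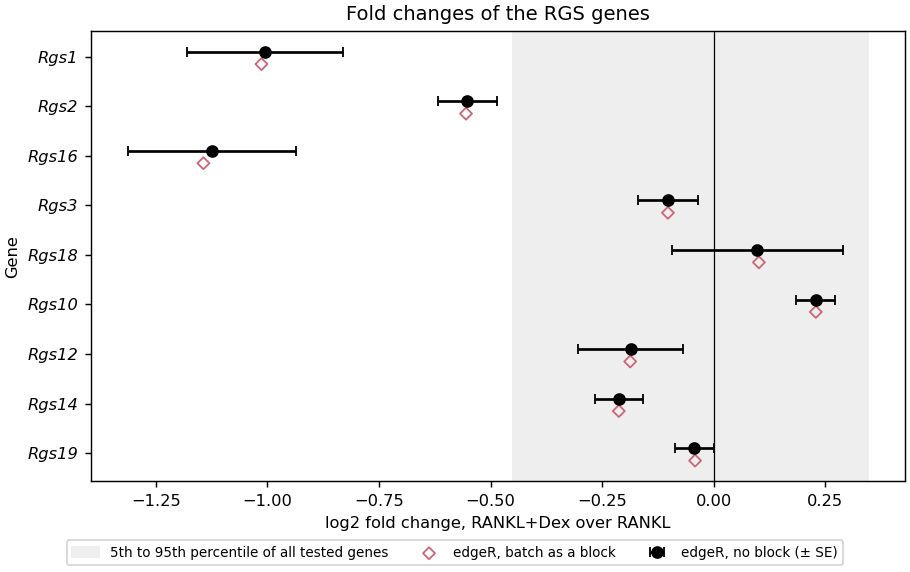
Log2 fold change (x axis, RANKL+Dex over RANKL) of each RGS gene (y axis) from edgeR, with SE bars and diamonds for the fit with batch as a block; the grey band spans the 5th to 95th percentile of all tested genes. Rgs1, Rgs2 and Rgs16 lie left of the band, whose edges are at −0.45 and 0.34, and the other 6 genes lie inside it.

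The ratio of treated to control CPM within each batch showed where the genes varied together and where they did not. For Rgs16 the log2 ratio ran from −1.65 in batch 4 to −0.70 in batch 5, and for Rgs1 from −1.49 in batch 4 to −0.65 in batch 5. Rgs2 had its largest fall in another batch, −0.77 in batch 2, and its smallest, −0.40, in batch 6. Batch 4 held the lowest ratio of 4 of the 9 genes (Rgs1, Rgs3, Rgs12 and Rgs16), and Rgs14 had its highest ratio there, −0.09. Rgs10 was higher by 0.19 to 0.30 in batches 2 to 6 and by 0.05 in batch 1. Rgs18 changed sign between batches, from −0.32 in batch 3 to 0.42 in batch 1. Each batch holds 1 library per group, so there is no test within a batch.

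**Figure D3:**
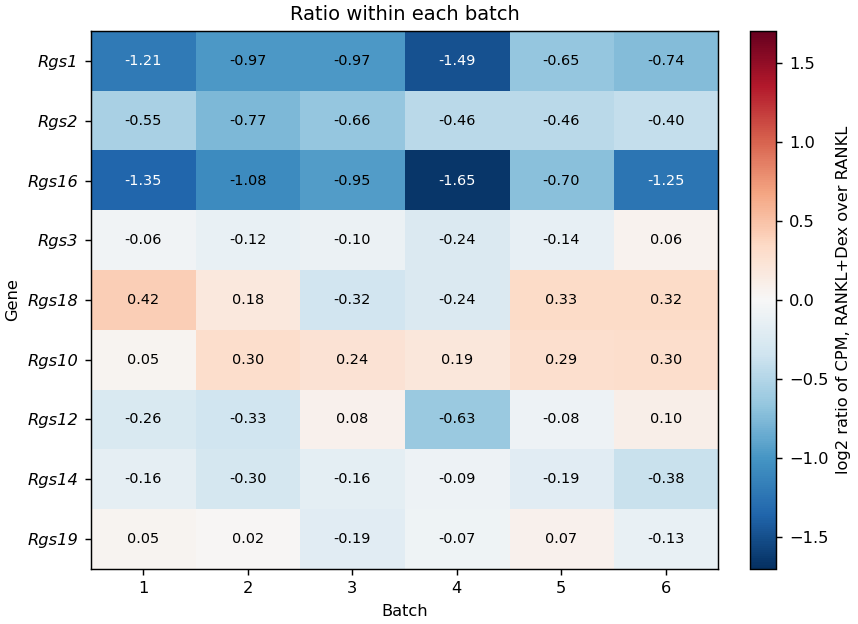
Log2 ratio of CPM, RANKL+Dex over RANKL, for each RGS gene (rows) within each batch number (columns), with red for higher and blue for lower. Rgs1, Rgs2, Rgs14 and Rgs16 are below 0 and Rgs10 is above 0 in all 6 batches, while the other 4 genes change sign.

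Levels were set side by side per kb of exon, since the 9 genes differ in exon length from 1140 bases (Rgs10) to 7831 bases (Rgs3). Rgs10 led in both groups, at a median of 78.7 CPM per kb in RANKL and 91.3 CPM per kb in RANKL+Dex. Rgs19 (35.0 CPM per kb in RANKL), Rgs14 (14.7), Rgs2 (7.80) and Rgs3 (3.32) followed, and no 2 neighbours in this upper part of the order overlapped in either group. Below them Rgs16 (2.09 CPM per kb), Rgs18 (1.11), Rgs1 (0.955) and Rgs12 (0.492) each overlapped the next in RANKL. In RANKL+Dex the order was the same except that Rgs18 (1.18 CPM per kb) stood ahead of Rgs16 (0.946), again with overlapping ranges.

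These per-length levels also give each gene's share of the summed RGS level within a library. Rgs10 made up 54.1% ± 1.87 (SD, n = 6) in RANKL and 60.9% ± 1.40 in RANKL+Dex, and its highest control library (56.5%) was below its lowest treated one (58.9%). The share of Rgs2 went from 5.42% ± 0.373 to 3.55% ± 0.303. Within a library the ratio of Rgs10 to Rgs2 per kb was 8.89 to 11.0 in RANKL and 14.9 to 18.8 in RANKL+Dex, a comparison that library scaling does not enter. The summed CPM per kb of the 9 genes, on which the shares rest, was 138 to 149 in RANKL (median 148). In RANKL+Dex it was 147 to 158 (median 151), with overlapping ranges. Without division by length, the summed CPM of the 9 genes was 267 ± 8.18 in RANKL and 261 ± 4.79 in RANKL+Dex (SD, n = 6), with overlapping ranges.

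**Figure D4:**
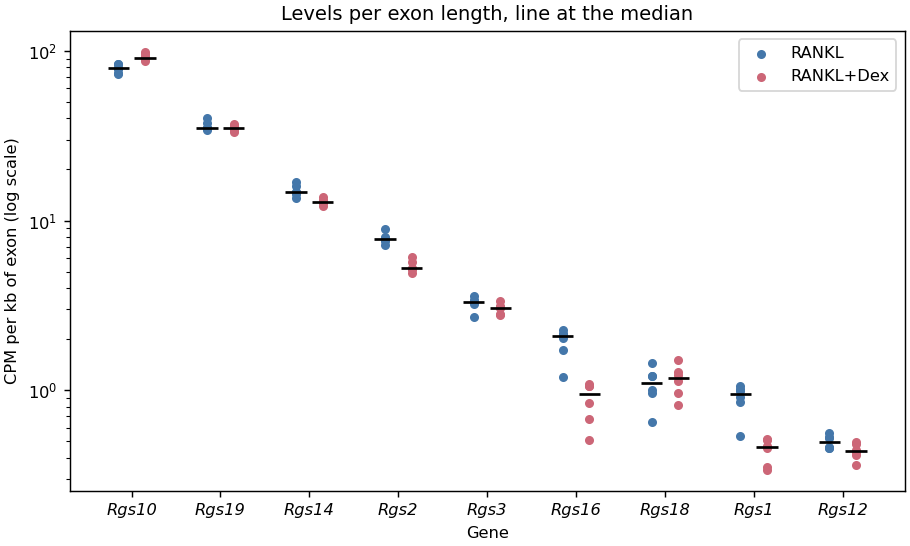
CPM per kb of exon (y axis, log scale) for each RGS gene (x axis, ordered by the RANKL level), with a point per library and a line at the median of 6. Rgs10 is the most abundant per length in both groups, with medians of 78.7 and 91.3, and Rgs12 the least, with 0.492 and 0.437.

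Of the 9 genes, 4 lie on chromosome 1. In the coordinates of the deposited table (GRCm39 per the submitters' processing notes) Rgs2 spans 143875076 to 143879899, Rgs1 spans 144118034 to 144124980 and Rgs18 spans 144628421 to 144651173, all on the minus strand. They are nearest neighbours among tested genes, 238135 bases (Rgs2 to Rgs1) and 503441 bases (Rgs1 to Rgs18) apart. Along this run the first 2 genes fell and the third did not pass. On its outer sides Uchl5, a proteasome-associated deubiquitinase gene 191872 bases from Rgs2, averaged 25.6 ± 1.92 CPM without and 28.2 ± 2.94 CPM with dexamethasone (SD, n = 6, edgeR adjusted p = 0.209, or 0.0477 without batch 1), and the phospholipase gene Pla2g4a, 5054196 bases beyond Rgs18, at 23.2 ± 1.35 and 21.8 ± 2.09 CPM (edgeR adjusted p = 0.427).

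Rgs16 lies on the plus strand of chromosome 1, from 153616095 to 153621214. The sialic acid lyase gene Npl, 190304 bases away, did not pass (edgeR adjusted p = 0.151). Beside the remaining genes, Zfp618 next to Rgs3 fell (log2 fold change −1.03 ± 0.23, edgeR adjusted p = 0.00634) and Dok7 next to Rgs12 rose (0.95 ± 0.25, edgeR adjusted p = 0.0165). The neighbours of Rgs10 (Rusf1 and Tial1), Rgs14 (Lman2 and Grk6) and Rgs19 (Tcea2 and Oprl1), and those on the other side of Rgs3 (Pole3) and Rgs12 (Msantd1), did not pass in edgeR. DESeq2 called Lman2 (adjusted p = 0.0178), as did edgeR without RANKL+Dex replicate 4 (adjusted p = 0.0430).

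Around the RGS genes, 133 genes of the G protein pathway from 9 lists by role were tested, of which 12 rose and 25 fell (27.8% called, against 15.5% of all tested genes), with a median log2 fold change of −0.08. Of the G alpha subunits, which include the Gi and Gq classes named above, 0 of 12 rose and 1 fell (8.33% called, below the share of all tested genes). Gnai2, the most abundant alpha subunit and the Gi form that many leukocyte receptors use, had control levels of 719, 777 and 789 CPM (lowest, median, highest) and treated levels of 679, 695 and 721 CPM. It fell by a small margin (log2 fold change −0.13 ± 0.03, edgeR adjusted p = 0.00775), and did not pass once batch 4 was left out (adjusted p = 0.0519). With batch as a block Gna15, a Gq-class subunit of blood cells, was also called lower (adjusted p = 0.00328, against 0.109 without the block).

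Of 12 G beta and gamma subunits 3 rose, all of them gamma chains, and 1 fell (33.3% called, against 15.5% of all tested genes). Gng2 rose by 0.78 ± 0.11 on the log2 scale (edgeR adjusted p = 8.0e-05), its mean CPM being 12.9 ± 1.89 in controls and 22.2 ± 3.27 after treatment (SD, n = 6). Gng11 rose by 0.52 ± 0.10 (adjusted p = 0.00184), with medians of 11.7 and 17.5 CPM. The beta chain gene Gnb4, at 48.0 ± 1.22 CPM in controls, was at 38.9 ± 2.21 CPM after treatment and fell (−0.30 ± 0.04, edgeR adjusted p = 1.4e-04), and the most abundant one, Gnb2, did not pass (adjusted p = 0.412). Among 11 chaperones and receptor-independent activators only Gpsm1 was called (9.09% of the list, below the 15.5% of all tested genes). Gpsm1, like RGS12 and RGS14, carries GoLoco motifs. It rose from 5.12 ± 1.14 to 7.57 ± 1.56 CPM (0.58 ± 0.15, edgeR adjusted p = 0.0173). The most abundant of that list, Ccdc88a, passed only with batch as a block (adjusted p = 0.0180, against 0.0764), where it was lower.

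Phospholipase C and calcium genes, only some of which act downstream of Gq, held 8 lower and 0 higher of 17 tested. Over all tested genes 7.55% were called lower and 7.98% higher. The median log2 fold change of the list was −0.11. Among the 8 were Plcg1 and Plcg2 (edgeR adjusted p = 0.00487 and 0.00244), which are not phospholipase C beta genes. Plcb2, the Gq- and G beta gamma-activated phospholipase of blood cells, lay at 116, 122 and 133 CPM in RANKL and 83.3, 89.6 and 101 CPM in RANKL+Dex (lowest, median, highest). It fell without overlap of the groups (log2 fold change −0.43 ± 0.05, edgeR adjusted p = 1.1e-05). The plasma membrane calcium pump gene Atp2b4 fell too (−0.51 ± 0.05, edgeR adjusted p = 2.1e-06), with means of 305 ± 15.1 and 214 ± 16.0 CPM. The endoplasmic reticulum pump gene Atp2a2, the most abundant of the list, was at 455 ± 17.2 and 448 ± 9.72 CPM (edgeR adjusted p = 0.707).

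Of 22 genes of cyclic AMP synthesis, breakdown and response, the pathway that Gi restrains, 3 rose and 2 fell (22.7% called, against 15.5% of all tested genes). With batch as a block 3 rose and 5 fell, in a fit that called 21.8% of all tested genes and 11.1% lower. Both adenylyl cyclases named by the rule were abundant and moved in opposite directions: Adcy3 rose (0.21 ± 0.04, edgeR adjusted p = 8.9e-04), with means of 315 ± 10.4 and 364 ± 17.0 CPM. Adcy7 fell (−0.38 ± 0.04, edgeR adjusted p = 6.0e-06), with means of 293 ± 9.44 and 224 ± 13.7 CPM. The kinase subunit gene Prkacb rose (0.18 ± 0.04, edgeR adjusted p = 0.0105) and the phosphodiesterase gene Pde4a fell (−0.23 ± 0.07, adjusted p = 0.0350), the latter with a call lost in 11 of 24 alternatives.

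Among arrestin and arrestin-domain genes, 1 of 6 rose and 2 fell. Arrb1, whose product uncouples receptors from G proteins, ranged from 223 to 228 CPM in controls and from 173 to 190 CPM after treatment. It fell without overlap (−0.32 ± 0.03, edgeR adjusted p = 3.9e-06). The smaller changes of the arrestin-domain genes Arrdc4, higher (adjusted p = 0.0342), and Arrdc3, lower (adjusted p = 0.0332), lost their edgeR calls in 10 and 14 of 24 alternatives. Of 13 tested genes of other families with an RGS-type domain 3 fell and 0 rose (23.1% called, against 15.5% of all tested genes). Each of the 3 fell by less than Rgs14. They included the anchoring protein gene Akap10 (−0.14 ± 0.04, edgeR adjusted p = 0.0196), with a call lost in 5 of 24 alternatives. Arhgef12 (−0.12 ± 0.04, edgeR adjusted p = 0.0340) lost its call in 13 of 24, and Arhgef11 passed narrowly (edgeR adjusted p = 0.0480). The most abundant of the list, the receptor kinase gene Grk3, lay at 656 ± 26.8 and 618 ± 48.8 CPM (edgeR adjusted p = 0.243).

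Of 39 tested receptors of the myeloid and osteoclast lineage 4 rose and 8 fell (30.8% called, against 15.5% of all tested genes). The nucleotide receptor gene P2ry2, which couples to Gq, rose (0.62 ± 0.07, edgeR adjusted p = 2.3e-05), with means of 23.6 ± 2.33 and 36.1 ± 3.68 CPM, as did the calcitonin receptor gene Calcr (1.48 ± 0.07). The platelet-activating factor receptor gene Ptafr fell (−0.65 ± 0.11, edgeR adjusted p = 8.4e-04), with means of 46.5 ± 7.56 and 29.4 ± 4.82 CPM, as did the chemokine receptor gene Ccr2 (−1.31 ± 0.19). With batch as a block 6 receptors rose and 12 fell, beside the 21.8% of all tested genes called in that fit against 15.5% without the block. Ccr1, the most abundant receptor of the list, was at 533 ± 44.1 and 532 ± 47.1 CPM (edgeR adjusted p = 0.992).

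**Figure D5:**
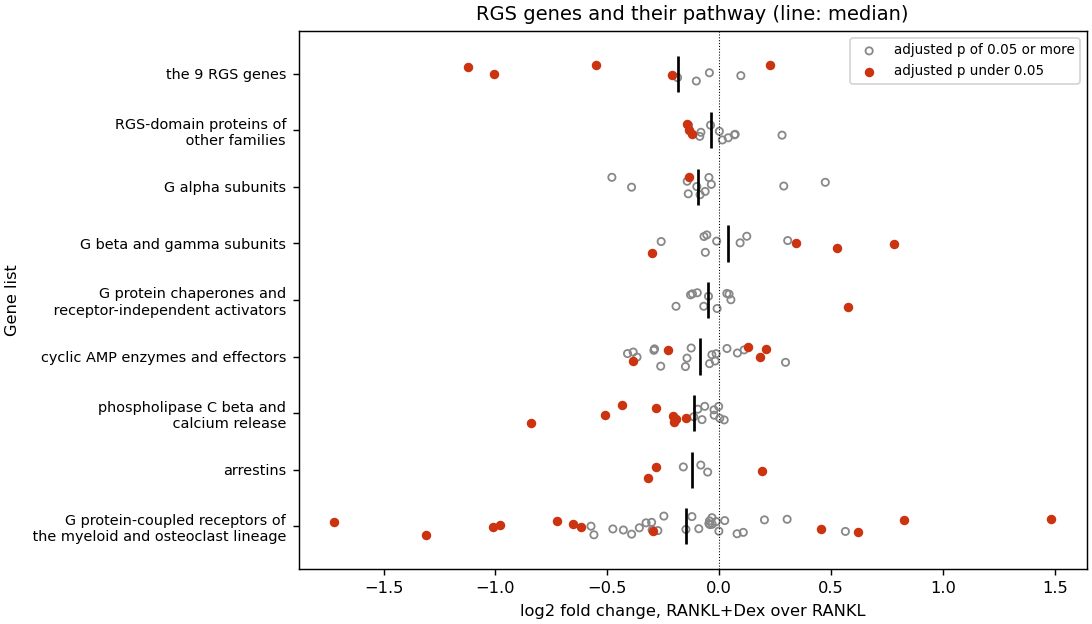
Log2 fold change (x axis, RANKL+Dex over RANKL) of each tested gene in the 9 RGS genes and 8 pathway lists (y axis), filled where the adjusted p was under 0.05, with a line at each median. The RGS genes have a median of −0.19, phospholipase C and calcium genes −0.11 with 8 of 17 filled, all to the left of 0, and G beta and gamma subunits 0.04.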

How the data were processed

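The authors deposited unnormalised read counts, whole numbers for 28293 genes in each of 12 libraries. FastQC 0.11.5, HISAT2 2.1.0, StringTie 1.3.3b, DESeq 1.28.0 and GRCm39 are named, without roles, per the submitters' processing notes; no source used here gives the counting program, its annotation or its use of strand.

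Genes were filtered with filterByExpr (minimum count 10, minimum total 15), leaving 13775, and tested with edgeR 4.0.16 in R 4.3.3 (TMM factors, quasi-likelihood test, two-sided, Benjamini-Hochberg over all tested genes, threshold 0.05). Fold changes (log2) set RANKL+Dex over RANKL, with an SE derived from the F statistic. CPM uses the TMM-scaled library sizes. Levels per kb use exon lengths over protein-coding transcripts of the GENCODE M21 basic set (GRCm38), which may differ from the annotation behind the counts.

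Batch numbers in the labels, 1 to 6 in either group, pair the libraries. Same-numbered libraries deviated from their group means with a mean correlation of 0.165. This correlation was 0.186, 0.269 and 0.357 in batches 1, 2 and 5, where each library resembled its partner most. In batches 3, 4 and 6 it was 0.0529, 0.0423 and 0.0799, and there the pairing rests on the labels. The mean for different numbers, −0.0329, is largely set by the removal of group means, so it is no separate check. The block changed no call among the RGS genes. Chi-square per gene between libraries of one group was 3.20 or more, so none repeated another within sampling noise. No source used here says whether the 6 libraries per group, called biological replicates in the design text and triplicates in the extraction protocol, came from separate mice, and p-values measure only the spread between these samples, which may be technical.

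The genes and lists were chosen with earlier results of these data known. The rule for named genes took every RGS gene, the nearest tested genes beside each, and from each pathway list the most abundant gene and up to 2 higher and 2 lower genes of smallest p past the threshold. For each changed RGS gene the 3 genes of most similar deviations, leaving out clone or predicted names, were also taken. Alternatives were RLE factors, DESeq2 1.42.0, limma-voom 3.58.1, 2 other filters, batch as a block, and libraries or batches left out. Protein features were not analysed here, and some genes that the rule takes are not reported here.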

Additional observations from a re-analysis of the deposited data

How the results depend on the processing

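edgeR without a block called 2139 genes, 5 RGS genes and 37 pathway genes. With batch as a replicate block edgeR called 3000, 5 and 49. Leaving out 1 library, or both libraries of a batch, gave 1339 to 2493 genes, 4 to 5 RGS genes and 29 to 38 pathway genes, with 1339 without batch 4 and 1409 without batch 6. Over 24 alternatives Rgs1, Rgs2, Rgs10 and Rgs16 kept their direction and their call, with the largest adjusted p at 0.0128, for Rgs10. Rgs14 lost its call without batch 6 (log2 fold change −0.18, adjusted p = 0.0665) and kept it in the other 23. Rgs3, Rgs12, Rgs18 and Rgs19 passed in none. Leaving out 1 library moved Rgs18 between −0.016 (reversed, without RANKL replicate 5) and 0.20 (without RANKL replicate 4). The cause of these changes was not tested. Rgs1, Rgs12, Rgs16 and Rgs18 rest on the fewest reads of the 9, 20 to 129 per library.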

Other observations

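Beyond the 9 genes, the table holds 10 other RGS genes, most of them known from neurons and retina, and 1 of these, Rgs9, passed the filter. Rgs9 had 109 counts in all controls together and 145 in all treated libraries, and was not called (log2 fold change 0.49 ± 0.23, edgeR adjusted p = 0.162). Under the filter, Rgs11 had 84 counts in RANKL and 40 in RANKL+Dex, Rgs20 had 17 and 42, and Rgs8 had 42 and 28. Rgs5 had 12 and 1, with 8 of its 12 RANKL counts in a single library. Rgs4, Rgs7, Rgs17, Rgs22 and Rgsl1 had 0 to 7 counts per group. None of these genes under the filter was tested.

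The genes whose levels deviated most like those of each changed RGS gene, after removal of the group means, are given as a description. They were sought over 12 libraries and all tested genes except those with clone or predicted names. For Rgs1 they were Fads1 (Pearson r 0.97), Cd200r4 (0.95) and the neutrophil gene S100a8 (0.94). For Rgs16 they were Bvht (0.97), Mrm3 (0.93) and Tpgs1 (0.91), and for Rgs2 Zfp422 (0.95), Ebag9 (0.90) and Zfp386 (0.88). For Rgs10 they were H1f0 (0.93), Plekha5 (0.93) and Adarb1 (0.91), and for Rgs14 Spidr (0.88), Cep19 (0.87) and Vps37b (0.85). No RGS gene was among the 3 named for another.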
